A study of Mus musculus with 4 samples.

Results

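Transcripts of the enteric nervous system were followed in cultures of mouse primary intestinal epithelial cells through 8 genes: Sox10, S100b, Gfap and Foxd3, which mark enteric glia and their neural crest precursors, and Ret, Elavl4, Uchl1 and Vip, which mark enteric neurons. Every probe set with 1 gene symbol among these 8 was taken, which gave 16 of the 34945 probe sets with 1 symbol, or 8 of 18193 genes. The series holds 4 arrays, 1 for each group: cells left untreated, cells given IL-17A (50 ng/ml), cells given FGF2 (5 ng/ml) and cells given both. The stimulated cells were exposed for 6 h, and how long the untreated cells were cultured is not stated in the labels. All groups shared the same culture conditions, in which isolated crypts were plated on fibronectin in medium with serum and insulin. The labels state neither mouse strain nor age nor pooling.

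Each group has a single array without replicates, so no p-value or standard error can be given, the differences are between arrays, and their number limits the precision. The values are signals (antilog of the deposited log2 values). Signals under the median of all signals on the 4 arrays (89.8) were raised to this floor before ratios were taken, and a gene over it on at least 1 array is called measured (12258 genes). Detection calls of the arrays were not used here, so measured means brighter than this floor, not shown to be present. A gene is represented by its brightest probe set. As a yardstick, the difference between the 2 readings of each factor's effect was taken as if it were error. Its absolute value, divided by the square root of 2 to stand for 1 ratio, had a 95th percentile that serves as the yardstick. This was 0.62 where the mean log2 signal was under 8, 0.46 at 8 to 10, 0.31 at 10 to 12 and 0.19 over 12. It is not the 95th percentile of the ratios themselves. With FGF2 against untreated, 5.83% of measured genes were higher and 8.22% lower beyond it. True interaction between the factors is part of this yardstick, so it is not a test. It is made for 1 ratio of 2 arrays. Ranges over 4 arrays pass it more easily, and gaps between arrays put in order pass it less easily, so it is only a rough guide for these.

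The enteric nervous system lies in the wall of the gut outside the epithelium and arises from neural crest cells that need the transcription factor Sox10 and the receptor Ret to colonise the bowel. Enteric glia surround the neurons and also reach the mucosa around the crypts, and the intermediate filament protein encoded by Gfap varies with their state. Enteric neurons signal to epithelium and vessels with peptides, among them vasoactive intestinal peptide, the product of Vip, which stimulates epithelial secretion. Uchl1, Elavl4 and Ret are not restricted to neurons, since enteroendocrine cells and some lymphoid cells express one or another of them.

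The labels name the cells as epithelial, and all 13 epithelial markers listed were measured, with Epcam signals of 16578 to 18315 over the 4 arrays. Probe sets for glial and neuronal transcripts were dimmer than Epcam, but all 8 genes were over the floor on all arrays in their brightest probe set. Of these the dimmest was S100b (signals 160 to 208) and the brightest Vip (5551 to 9334). Of the 16 probe sets, 12 were over the floor on all arrays, 3 on some and 1 (a Sox10 probe set) on none. In bulk RNA, fewer cells of a type and less RNA per cell cannot be told apart.

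Promoter windows, from 250 bases before to 50 bases after the annotated start, are shown for Gfap and Vip, the glial and the neuronal gene that differed most between arrays. The promoter set used, on GRCm38.p6, has an entry for 6 of the 8 genes (S100b, Gfap, Foxd3, Elavl4, Uchl1 and Vip). It holds none for Sox10 and Ret, although all 8 genes matched RefSeq by Entrez identifier. The sequences run 5′ to 3′ on the gene's strand. Capitals mark matches, on both strands, to the cAMP response element core CGTCA (reverse complement TGACG) or to the AP-1 element TGANTCA.
Vip, chr10:5638968-5639267, plus strand: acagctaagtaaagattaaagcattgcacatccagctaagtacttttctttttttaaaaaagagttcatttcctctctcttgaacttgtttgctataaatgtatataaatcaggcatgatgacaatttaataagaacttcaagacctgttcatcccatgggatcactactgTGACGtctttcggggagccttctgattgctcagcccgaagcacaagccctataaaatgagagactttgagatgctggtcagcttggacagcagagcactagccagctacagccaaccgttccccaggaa
Gfap, chr11:102897151-102897450, minus strand: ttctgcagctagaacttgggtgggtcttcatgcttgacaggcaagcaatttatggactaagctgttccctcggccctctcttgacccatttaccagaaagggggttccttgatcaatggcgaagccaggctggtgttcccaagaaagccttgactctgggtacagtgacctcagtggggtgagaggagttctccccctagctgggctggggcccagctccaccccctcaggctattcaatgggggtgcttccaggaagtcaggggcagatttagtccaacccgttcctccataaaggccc
The Vip window held 1 match to the cAMP response element core, which started at position -79 from the transcription start, and 0 matches to the AP-1 element. The Gfap window held 0 matches to either. Of 32851 promoter windows of this length, 20.8% held the core and 7.81% the AP-1 element, so a match to the core is common, and it describes letters in this window only. Foxd3 had 2 overlapping core matches, and 3 of 4 Elavl4 start sites had 1 each.

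**Figure D1:**
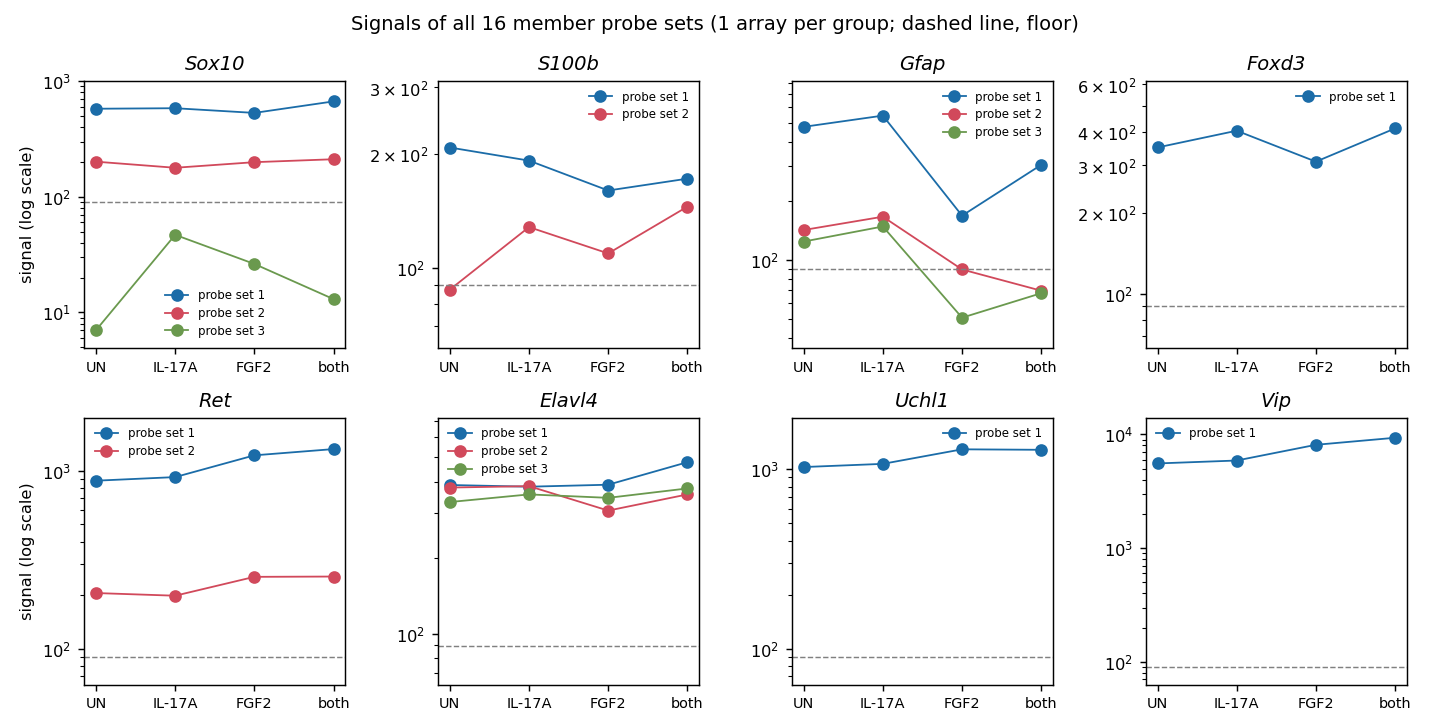
Signal of each member probe set (vertical axis, log scale) on the untreated (UN), IL-17A, FGF2 and combined (both) arrays (horizontal axis), with 1 array per group, probe sets numbered by brightness and lines joining the points of 1 probe set only to guide the eye. The dashed line is the floor of 89.8; all 3 Gfap probe sets are lower on the FGF2 and combined arrays than on the other two, while Vip and both Ret probe sets are higher there.

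Gfap was lower on both arrays with FGF2. Its brightest probe set had signals of 476 on the untreated array, 543 with IL-17A, 168 with FGF2 and 305 with both factors. The IL-17A array was thus the highest and the FGF2 array the lowest. The IL-17A and untreated arrays were 0.19 log2 units apart, inside the yardstick of 0.46. The next steps down, 0.64 from untreated to combined and 0.86 from combined to FGF2, were outside it. Against untreated cells, Gfap was 2.84-fold lower with FGF2 (log2 ratio −1.50), and 0.228% of measured genes had a lower ratio. It was 1.56-fold lower with both factors.

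The FGF2 difference in Gfap could be read a second time from arrays that share nothing with the first pair: the combined array was 1.78-fold below the IL-17A array (log2 ratio −0.83). The mean of both readings was −1.17, but they differed by 0.67 log2 units, and the second was taken with IL-17A present. The 2 dimmer probe sets were over the floor only on the untreated array (signals 142 and 124) and the IL-17A array (166 and 148). Both were under the floor on the FGF2 array (89.4 and 50.8) and on the combined array (69.7 and 67.7). FGF2 against untreated was therefore at least 1.59-fold lower in one and at least 1.38-fold lower in the other. The direction was the same in all 3 probe sets, but 2-fold was passed in the brightest one only, which is also of the type that can detect related transcripts. The value of 1.82-fold higher with both factors than with FGF2 alone rests on the brightest probe set, as no fold can be given between signals that are both under the floor.

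The other glial genes did not show a difference of that size. Sox10, the transcription factor that specifies and maintains glia, had signals of 577 untreated, 583 with IL-17A, 531 with FGF2 and 668 with both in its brightest probe set. A second probe set gave 201, 178, 199 and 211 in the same order of arrays. In both the combined array was the highest, but the whole range was 1.26-fold and 1.19-fold, inside the yardstick. The third, at signals of 7.0 to 46.8, was under the floor throughout.

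Foxd3, a transcription factor of the early neural crest, had signals of 350 untreated, 404 with IL-17A, 310 with FGF2 and 412 with both. The 2 arrays with IL-17A were the highest, and the range of 1.33-fold lay inside the yardstick. S100b, a calcium-binding protein of glia, gave no single answer. Its brighter probe set had signals of 208, 192, 160 and 172 and was highest in untreated cells. Its dimmer one had signals of 87.4, 128, 109 and 145 and was lowest there, with a range of 1.61-fold (0.69 log2 units) just outside the yardstick of 0.62. FGF2 against untreated was 1.30-fold lower in the first and at least 1.22-fold higher in the second, so S100b had no settled direction.

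Among the neuronal genes, Vip and Ret were higher on both arrays with FGF2. Vip had signals of 5551 untreated, 5889 with IL-17A, 8095 with FGF2 and 9334 with both, from 1 probe set. The arrays without FGF2 differed by 0.09 log2 units, inside the yardstick of 0.19, and the step from the IL-17A to the FGF2 array was 0.46. The step from FGF2 to combined, 0.21, lay just outside the yardstick. Vip was 1.46-fold higher with FGF2 than untreated (log2 ratio 0.54), and 2.74% of measured genes had a higher ratio. Combined against IL-17A gave 1.58-fold (0.66), and combined against untreated 1.68-fold (0.75).

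Ret, the receptor tyrosine kinase for ligands of the GDNF family, had signals of 881 untreated, 923 with IL-17A, 1223 with FGF2 and 1326 with both. The pair of arrays without FGF2 and the pair with it each lay within 0.12 log2 units, and the gap between the pairs was 0.41, against a yardstick of 0.31. Ret was 1.39-fold higher with FGF2 (0.47), and 3.87% of measured genes had a higher ratio. It was 1.44-fold higher when FGF2 was added to IL-17A (0.52), a pair that shares no array with the first. The dimmer Ret probe set, with signals of 206, 199, 254 and 255, was also higher on both FGF2 arrays (log2 ratios 0.30 and 0.36 in the same pairs), within the wider yardstick for dim signals of 0.62.

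Uchl1, a ubiquitin hydrolase abundant in neurons, was likewise higher on both FGF2 arrays, with smaller steps. Its signals were 1029 untreated, 1072 with IL-17A, 1292 with FGF2 and 1284 with both. FGF2 against untreated was 1.26-fold higher (0.33), just outside the yardstick of 0.31, and combined against IL-17A 1.20-fold (0.26), inside it. Elavl4, an RNA-binding protein of neurons, had signals of 389, 383, 390 and 479 in its brightest probe set, so only the combined array stood higher (1.23-fold over untreated). Its other probe sets had signals of 380, 385, 308 and 357, and of 333, 357, 346 and 377. They gave log2 ratios of −0.09 and 0.18 for combined against untreated, and all 3 ranges lay inside the yardstick.

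**Figure D2:**
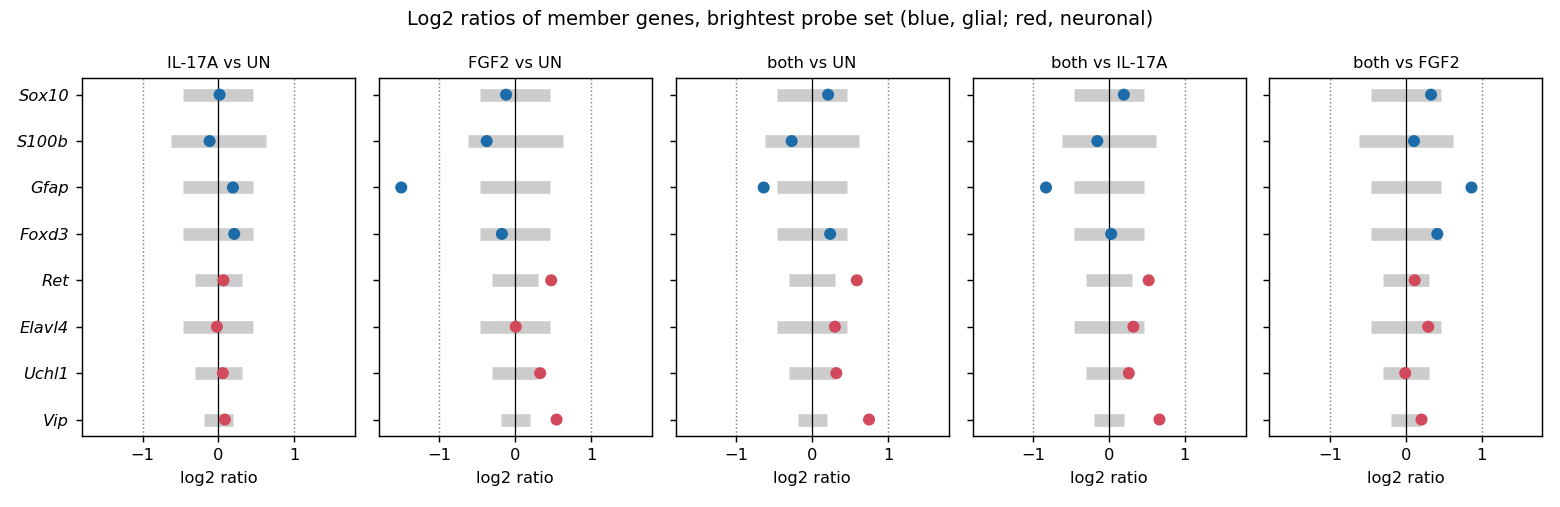
Log2 ratio (horizontal axis) of each of the 8 genes (vertical axis) in 5 comparisons of 2 arrays each, from the brightest probe set; grey bars span the yardstick of that gene's brightness class and dotted lines mark 2-fold. Only Gfap passes 2-fold, with FGF2 against untreated at −1.50, while Vip and Ret lie right of their bars in the 3 comparisons that add FGF2.

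Counted together, none of the 8 genes passed 2-fold upward in any of the 5 comparisons, and Gfap alone passed 2-fold downward, in FGF2 against untreated. Over all measured genes, FGF2 against untreated had 0.963% (118 genes) at least 2-fold lower and 0.473% (58) higher; scaled to equal medians these were 88 and 76. The corresponding shares were 0.228% lower and 0.375% higher for IL-17A against untreated, 1.73% and 0.906% for both against untreated, 0.857% and 0.547% for both against IL-17A, and 0.269% and 0.367% for both against FGF2. Equal medians changed the split, lower to higher, from 212 and 111 to 160 and 145 for both against untreated, from 105 and 67 to 78 and 94 against IL-17A, and from 33 and 45 to 24 and 55 against FGF2.

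At 1.5-fold, both factors against untreated had 2 members higher (Vip and Ret), where 3.34% of measured genes were, and 1 lower (Gfap), where 6.52% were. The count for both against IL-17A was 1 higher (Vip; 2.80% of all) and 1 lower (Gfap; 4.09%), and for both against FGF2 1 higher (Gfap; 1.83%). FGF2 alone had 0 higher (2.34% of all) and 1 lower (Gfap; 4.82%). IL-17A alone had 0 in either direction, where 1.44% of measured genes were higher and 1.95% lower.

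Outside the yardstick, FGF2 against untreated had 3 members higher (Ret, Uchl1 and Vip) and 1 lower (Gfap), where 5.83% and 8.22% of measured genes were. IL-17A against untreated had 0 members outside it in either direction (2.75% and 3.32% of all). Both against IL-17A had 2 higher (Ret and Vip; 6.45% of all) and 1 lower (Gfap; 6.89%). Both against FGF2 had 2 higher (Gfap and Vip; 3.79% of all) and 0 lower (3.70%). Both against untreated had 3 higher (Ret, Uchl1 and Vip; 8.32% of all) and 1 lower (Gfap; 9.98%).

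The median log2 ratio of the 8 genes was 0.06 for IL-17A against untreated, −0.06 for FGF2 (0.03 with equal medians), 0.27 for both, 0.23 for both against IL-17A and 0.25 for both against FGF2. Over all measured genes the medians were −0.01, −0.01, 0.00, 0.00 and 0.00. With FGF2 against untreated, 51.6% of all measured genes were below 0 and 46.1% above. The 4 glial genes had a median of −0.28 there and all 4 were below 0, but only Gfap lay outside the yardstick and the probe sets of S100b disagreed. The 4 neuronal genes had a median of 0.40 and all 4 were above 0, Elavl4 by 0.01 only, with another of its probe sets at −0.30. In the other pair for FGF2, both factors against IL-17A, the glial median was −0.06 with 2 of 4 below 0 and the neuronal median 0.42 with 4 of 4 above 0, where 47.6% of all measured genes were below 0 and 49.6% above.

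Further glial and Schwann lineage genes were read from a list of 25, of which 19 were measured. With FGF2 against untreated, 12 of 19 were below 0 (median −0.27), beside 51.6% of all measured genes. In that pair 3 passed 2-fold downward (0.963% of all) and 0 upward (0.473%). With equal medians the median was −0.18 and 1 passed. With an added floor 0 passed, and without probe sets open to related transcripts 2 of 14 did. Both against IL-17A gave 15 of 19 below 0 (median −0.14), beside 47.6% of all measured genes, with 2 past 2-fold downward (0.857% of all). When medians were made equal, 10 of 19 were below 0 (median −0.02) with 0 past 2-fold. Below 0 in both of these pairs were 11 of 19 (57.9%), and 32.9% of all measured genes.

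The genes that passed 2-fold encode membrane proteins. Cdh19, a cadherin of the Schwann and glial lineage, had signals of 979 untreated, 969 with IL-17A, 468 with FGF2 and 455 with both, so that the arrays with and without FGF2 formed separate pairs (2.09-fold lower with FGF2 alone, 2.13-fold lower when it was added to IL-17A). Kcna1, a voltage-gated potassium channel, had signals of 384, 392, 167 and 182 (2.30-fold and 2.16-fold lower), and of its 3 measured probe sets 2 were below 0 with FGF2 alone and 3 with both against IL-17A. Cmtm5, a membrane protein, had signals of 205, 155, 98.0 and 152 and was 2.09-fold lower with FGF2 alone, but differed by 1.02-fold between both factors and IL-17A.

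Scn7a, a sodium channel of glia, had signals of 436, 531, 281 and 301, and the adhesion molecule gene Ncam1 of 1540, 1466, 1069 and 1125. Both were lower on the arrays with FGF2, by 1.55-fold and 1.44-fold in FGF2 against untreated, with all 3 and all 4 of their measured probe sets below 0. Erbb3, the neuregulin receptor on which glial precursors depend, had signals of 2784, 2528, 2191 and 2161. Among other glial genes, Sox2, a transcription factor of glial progenitors, had a log2 ratio of −0.07 with FGF2, and the N-cadherin gene Cdh2 0.12. The myelin protein gene Mbp was at 0.01 in its brightest probe set, while 5 of its 6 measured probe sets were below 0, down to −0.71. Ngfr, the low-affinity neurotrophin receptor, was at 0.16. Pmp22, a myelin protein gene that other cells also express, was lowest on the combined array (signals 6475, 4497, 5125 and 3378).

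Of a list of 34 further neuronal genes, 27 were measured. With FGF2 against untreated, 15 of 27 were above 0 (median 0.15), beside 46.1% of all measured genes. In that pair 1 passed 2-fold upward (0.473% of all) and 0 downward (0.963%). With the floor at the 25th percentile 16 of 32 were above 0 with a median of 0.03. With both factors against IL-17A, 18 of 27 were above 0 (median 0.14), beside 49.6% of all measured genes. Of the 27, 2 were at least 2-fold higher (0.547% of all). With equal medians 23 of 27 were above 0 (median 0.26). Above 0 in both pairs were 12 of 27 (44.4%), and 31.6% of all measured genes.

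Those 2 genes encode peptides, as Vip does. Penk, the precursor of enkephalins, had signals of 611 untreated, 814 with IL-17A, 1305 with FGF2 and 1788 with both. The 4 arrays thus had the same order as for Vip, with 2.14-fold higher signal for FGF2 against untreated and 2.20-fold for both against IL-17A. Gal, the galanin gene, had signals of 1221, 1354, 2213 and 2723 (1.81-fold and 2.01-fold). Tac1, the precursor of substance P, had signals of 1364, 1651, 1964 and 1884, so that the FGF2 array was the highest (1.44-fold over untreated).

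Cytoskeletal and synaptic genes of neurons were mixed. The neurofilament gene Nefl, close to the floor, had signals of 90.2, 71.8, 144 and 162, which is 1.59-fold higher for FGF2 against untreated and at least 1.81-fold for both against IL-17A. Its 2 measured probe sets gave log2 ratios of 0.00 and 0.67 in the first pair. The synaptic vesicle gene Syp had signals of 92.3, 106, 131 and 103, so that only FGF2 alone stood higher (1.42-fold). The log2 ratio for FGF2 against untreated was 0.30 for Stmn2, a microtubule regulator, 0.22 for the vesicle fusion gene Snap25, 0.10 for the tubulin gene Tubb3 and −0.02 for Prph, an intermediate filament gene of peripheral neurons. Nos1, which encodes the nitric oxide synthase of inhibitory motor neurons, was at 0.22. Hand2, a transcription factor of enteric neurons that other gut mesenchyme also expresses, was at −0.47. The acetylcholine-synthesis gene Chat and its vesicle transporter Slc18a3, which mark cholinergic neurons, were under the floor on all 4 arrays, as were Th, Calb1 and Elavl2.

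**Figure D3:**
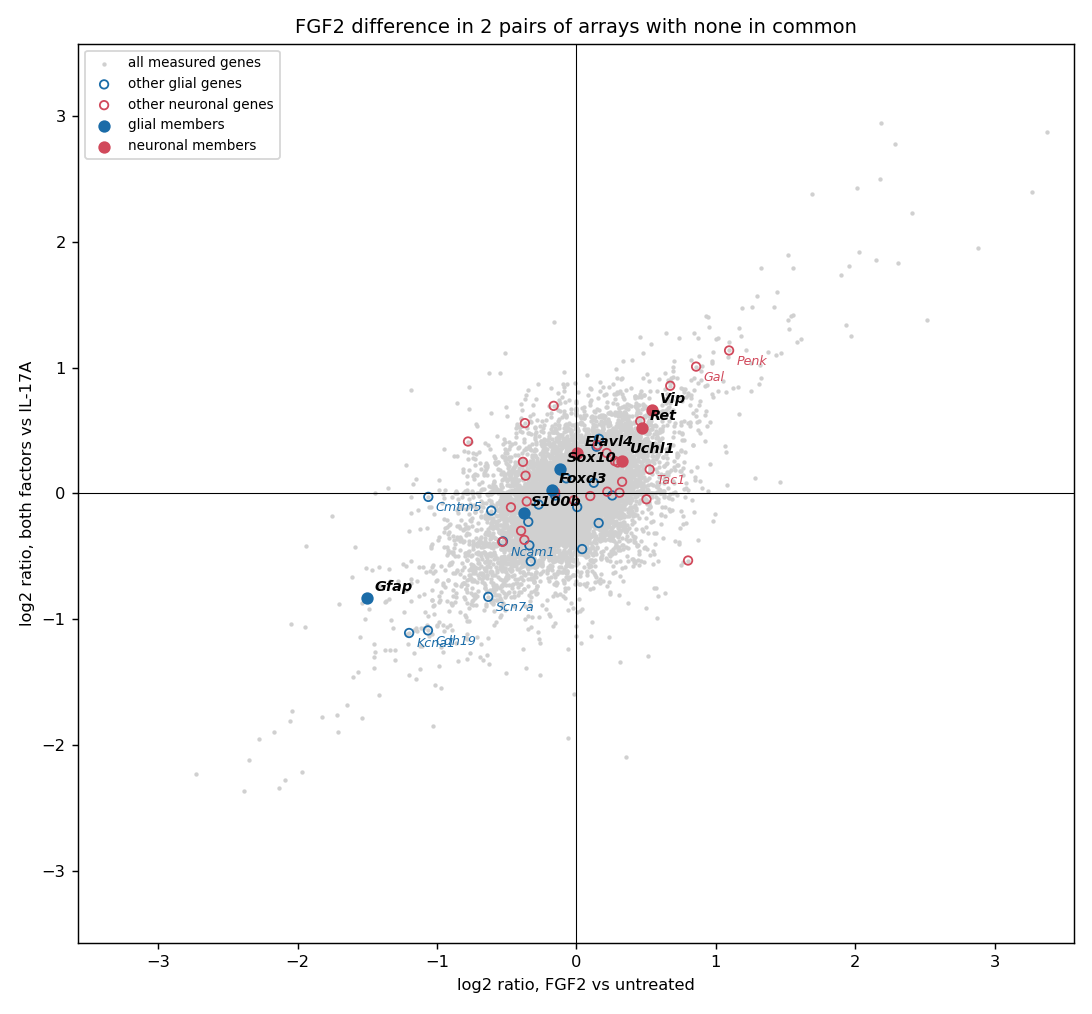
Log2 ratio for FGF2 against untreated (horizontal axis) and for both factors against IL-17A (vertical axis), 2 pairs of arrays with none in common; grey points are the 12258 measured genes, filled points the 8 members and open circles the other glial (blue) and neuronal (red) genes. Gfap, Kcna1 and Cdh19 lie in the lower left and Penk, Gal, Vip and Ret in the upper right.

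Genes that signal to or with the members were read from smaller lists. Of 16 genes of GDNF, Ret and endothelin-3 signalling, 12 were measured. With FGF2 against untreated 5 were above 0 and 7 below (median −0.02), beside 46.1% and 51.6% of all measured genes. At 2-fold 0 differed (0.473% of all were higher and 0.963% lower). At 1.5-fold 0 were higher and 2 lower (2.34% and 4.82% of all). The Ret ligand gene Gdnf had signals of 204 untreated, 224 with IL-17A, 248 with FGF2 and 282 with both, and its co-receptor gene Gfra1 of 679, 663, 850 and 693. Both orders placed an FGF2 array highest, as for Ret, but the ratios to untreated (0.28 and 0.32 with FGF2) lay inside the yardstick of their brightness classes. Larger FGF2 ratios in this list went down. The ligand gene Nrtn was 1.65-fold lower (log2 ratio −0.72), outside its yardstick of 0.62. Gfra2 was at −0.60 and Zeb2 at −0.51, outside 0.46, though 1 of 4 measured Zeb2 probe sets was above 0. A dimmer Gfra1 probe set, over the floor on neither the untreated nor the combined array, had a log2 ratio of at least 1.05 with FGF2 against untreated. Ednrb, the endothelin receptor gene needed by enteric neural crest cells and also expressed by other cells, ranged from 3692 to 4221 in its brightest probe set. All 3 of its measured probe sets were lower on the combined array than on the others. Their log2 ratios were −0.58 to −0.19 against untreated, −0.72 to −0.10 against IL-17A and −0.50 to −0.17 against FGF2. With FGF2 against untreated, 1 was above 0 and 2 below.

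In that list 1 gene passed 2-fold in any comparison, upward in both against FGF2, where 0.367% of all measured genes did. Gfra2, the neurturin co-receptor gene, had signals of 543, 669, 359 and 741, which makes both factors against FGF2 2.06-fold higher. That log2 ratio of 1.05 lay between 0.09 and 1.11 over 7 alternatives, and 1 of its 3 measured probe sets was below 0. The brightest Gfra2 probe set is of the type that can detect related transcripts.

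Of 6 genes of neuregulin signalling 4 were measured, with a median of −0.03 with FGF2 and 0 at least 2-fold different. Of the genes for receptors of vasoactive intestinal peptide and for its relative PACAP, 2 of 4 were measured. The receptor gene Vipr1, which epithelial cells express, had signals of 154, 120, 95.5 and 91.6, just over the floor on both arrays with FGF2. Its ligand gene Vip was highest on those arrays, but a link between Vipr1 and Vip was not tested. The log2 ratio of Vipr1 with both factors was −0.75, beyond the yardstick of 0.62, and with FGF2 −0.69. Signals this close to the floor limit what can be said of Vipr1. Vipr2 was under the floor on all arrays. Of 6 paralogs of Uchl1 and Elavl4, 4 were measured and 0 were at least 2-fold different (median −0.04 with FGF2), beside the same shares of all measured genes. Among them Elavl1, the ELAV gene expressed in most cells, had signals of 4476 to 4888.

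Markers of other cells of the gut wall differed between the same arrays. Summed signals of 10 endothelial markers, all 10 measured, were 8814 untreated, 8206 with IL-17A, 12059 with FGF2 and 13129 with both. All 10 were above 0 with FGF2 against untreated (median 0.38). Of all measured genes, 46.1% were above 0 and 51.6% below in that pair. Sums of the 10 fibroblast markers, all measured, were 60422, 63349, 47930 and 50467 (8 of 10 below 0 with FGF2, median −0.42). The 7 smooth muscle markers, all measured, gave 34672, 35495, 25058 and 23337 (7 of 7 below 0, median −0.77). The 4 neuronal members summed to 7850, 8267, 11002 and 12422 and the 4 glial members to 1610, 1723, 1168 and 1558. Thus the neuronal and endothelial sums were both higher on the FGF2 arrays than on the others, and the glial sum was lowest on the FGF2 array. The part of these cells in the members' values was not tested.

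Enteroendocrine cells express some of the neuronal genes, and 17 of 18 of their markers were measured. Their sums were 24397, 24983, 28159 and 28049. With FGF2 against untreated, 6 of 17 were above 0 (46.1% of all measured genes were) and the median was −0.04, beside a sum that was higher with FGF2. The hormone genes Pyy (signals of 3336 to 3768) and Sct (855 to 1046) varied little, and Chga was at −0.08. The 2 markers at least 1.5-fold higher (2.34% of all measured genes were) were Cck (signals 1100, 1122, 4103 and 3738) and Scg2 (1402, 1454, 2283 and 2111), which neurons express as well. Neurod1, an enteroendocrine transcription factor, was the 1 marker at least 1.5-fold lower (signals 328, 278, 190 and 200), where 4.82% of all measured genes were.

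Other lists were smaller or dim. The interstitial cell of Cajal markers Kit (1.53-fold higher with FGF2) and Ano1 (log2 ratio −0.24) went opposite ways. Of 8 tuft cell markers 4 were measured (median −0.26 with FGF2), and of 9 macrophage and leukocyte markers 5 (median −0.03). Their sums were 1526, 1556, 1118 and 1198 for tuft cells, and 2278, 2818, 3971 and 4434 for leukocytes, the latter led by Cd14. Of 8 markers of innate lymphoid cells, a cell type that expresses Ret, 1 was measured (Il7r, signals 188, 202, 135 and 203), 3 were under the floor and 4 had no probe set with 1 symbol. The epithelial sum ranged from 146380 to 154762.

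**Figure D4:**
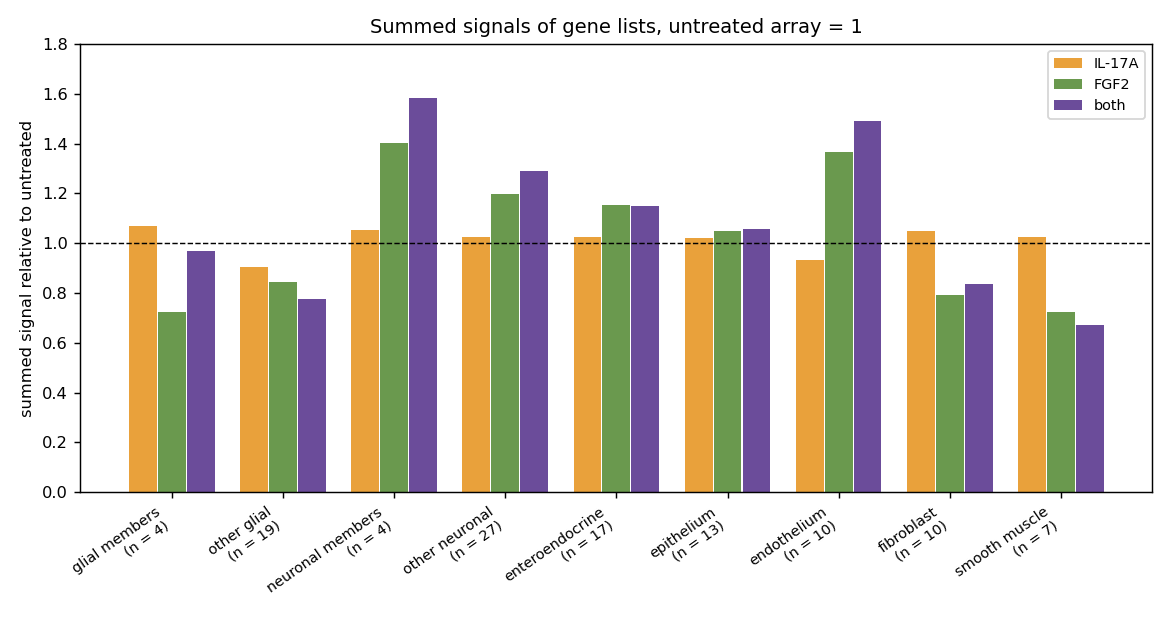
Summed signal of the measured genes of each list on the IL-17A, FGF2 and combined arrays (bars), relative to the untreated array (dashed line at 1), with the number of genes under each list; a sum is weighted to its brightest genes, such as Vip among the neuronal members. With both factors the neuronal members stand at 1.58 and the endothelial markers at 1.49, and the smooth muscle markers at 0.67.

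For the 3 members whose log2 signal spanned at least 0.5, the genes with the most similar profile over the 4 arrays were found by the root mean square difference of mean-centred log2 signals, among 10902 genes over the floor on all arrays. For Gfap these were Rasl11a (difference 0.05; signals 339, 363, 117 and 198), Apcdd1 (0.14) and Serping1 (0.17). For Ret they were Mllt11 (0.02; signals 1075, 1135, 1478 and 1568), Gja1 (0.02) and Ctla2b (0.03). For Vip they were Cemip2 (0.02; signals 1312, 1434, 1986 and 2230), 2010204K13Rik (0.03) and Gpr182 (0.03). With only 4 arrays, close profiles are a description.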

How the data were processed

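Total RNA of 4 cultures was hybridised to 1 Affymetrix 3′ expression array each. The authors deposited 1 log2 signal for each probe set. MAS5 is named as the tool per the submitters' processing notes, without a version. Of 45101 probe sets, 64 controls were left out, and the platform annotation, which can be old, gave 1 symbol for 34945, several for 932 and none for 9160. By Entrez identifier 34741 matched RefSeq (GRCm38.p6), with 0 symbols changed. Signals were floored at the 50th percentile, and log2 ratios and counts at least 2-fold different were taken without any test. The yardstick is the interaction divided by the square root of 2, in classes of mean log2 signal. Named genes were the 8 members, list genes at least 2-fold different in any comparison, up to 4 of each list by highest mean signal and, for members spanning 0.5 log2 units, the 3 most similar profiles. Other list genes (such as Gdnf, Scn7a, Chat, Cck and Neurod1) were named after their values were seen. The members and lists were chosen with earlier results of these data known. Alternatives were quantile and equal-median scaling, a floor at the 25th or 75th percentile or an added floor, averaging a gene's probe sets, leaving out those with the suffixes _x_at, _s_at and _a_at, thresholds of 1.5-fold and 3-fold, and the mean of both pairs of arrays. Calculations used Python 3.11.15, numpy 2.4.6 and pandas 2.3.3. The code was checked on simulated arrays with large planted changes in bright genes only. That check does not bear on the small or dim differences given here.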

Additional observations from a re-analysis of the deposited data

How the results depend on the processing

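No paired analysis was possible because each group has 1 array. The count of members at least 2-fold different with FGF2 against untreated, 1 in the reported setting, was 0 with the floor at the 75th percentile, averaging a gene's probe sets, without probe sets open to related transcripts and at a 3-fold threshold. It was 1 with the other scalings, the lower floor, the added floor and 1.5-fold. At 1.5-fold the count was 3 for both factors against untreated, 2 against IL-17A and 1 against FGF2, each 0 in the reported setting. The log2 ratio of Gfap with FGF2 was −0.03 with the floor at the 75th percentile, which only its untreated and IL-17A signals passed, −0.67 without probe sets open to related transcripts and −0.88 with the mean of all. The last 2 rest on probe sets whose FGF2 signal was under the floor, so they bound the difference from below. Kcna1 and Cmtm5 have no ratio with the floor at the 75th percentile (465), as all of their signals lie under it. Cdh19, which is brighter, stayed between −1.06 and −0.94 and Penk between 0.99 and 1.19 with FGF2. Scaling to equal medians moved the median of all measured genes to 0.14 for both factors against untreated and to 0.12 against IL-17A. The median of the members with FGF2 was then 0.03 in place of −0.06. Signals near the floor limit what can be said of Gfap and S100b.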

Other observations

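Within the list of neuronal genes, those encoding secreted peptides (Tac1, Npy, Gal, Penk, Grp and Nmu) were set apart after their values had been seen, so the grouping carries no test. With both factors against IL-17A all 6 were above 0 (49.6% of all measured genes were), with a median log2 ratio of 0.49. Only Penk (1.14) and Gal (1.01) lay outside the yardstick of their brightness class. Tac1 (0.19), Npy (0.38), Nmu (0.41) and Grp (0.56) lay inside it. The other 21 measured neuronal genes had a median of 0.01 with 12 above 0. With FGF2 against untreated 4 of the 6 were above 0 (median 0.34), beside 46.1% of all measured genes. The other 21 had a median of 0.10 with 11 above 0. The exceptions were Grp, the gastrin-releasing peptide gene, with signals of 215 untreated, 193 with IL-17A, 166 with FGF2 and 284 with both, and Nmu, the neuromedin U gene, with signals of 213, 136, 124 and 182. Npy, the neuropeptide Y gene, had signals of 925, 722, 1028 and 943. In FGF2 against untreated, Penk (1.10), Gal (0.86) and Tac1 (0.53) lay outside the yardstick upward and Nmu (−0.78) downward. Peptide genes listed as enteroendocrine markers were not part of this grouping. Of them, Cck was above 0 in both pairs (1.90 and 1.74). Sst (−0.39 and −0.11) and Nts (−0.31 and −0.20) were below 0 in both.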
